A study of Mus musculus with 32 samples.

Results

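The 37 genes of the mouse mitochondrial chromosome were followed through whole muscles of mice with a knockout of Acvr1b, Tgfbr1 or both in their myofibres. They were taken as every gene of the count table that lies on chromosome MT and carries an mt- symbol, 37 of 55487 genes in all. They comprise 13 messenger RNAs, 2 ribosomal RNAs and 22 transfer RNAs. Acvr1b and Tgfbr1 encode type I receptors of the TGF-β family, which pass the signals of activins, myostatin and TGF-β into the cell. The libraries fall into 4 genotypes, which the labels name double KO, Acvr1b KO, Tgfbr1 KO and control. Knockout was induced in myofibres by tamoxifen in mice aged 6 weeks, and the muscles were taken 3 months later. Soleus, a slow-type muscle, and gastrocnemius medialis, a fast-type muscle, came from the left leg of the same 16 mice, 4 per genotype, which gave 8 groups of 4 libraries of polyadenylated RNA. The promoter that drove the recombinase and the exons it removed are not given in the sources used here, and the labels do not say whether control mice received tamoxifen. RNA came from the whole muscle, so fewer cells of a type and less RNA per cell cannot be told apart.

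Mitochondrial DNA encodes core subunits of the respiratory chain and ATP synthase, and the rRNAs and tRNAs that translate them. Both strands are transcribed as long precursors, tRNAs are cut out between the other genes, and the released rRNAs and most of the mRNAs are adenylated. All other subunits, and all proteins that copy, transcribe, process and translate the mitochondrial genome, are encoded in the nucleus. Slow oxidative muscle is known for a high content of mitochondria.

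As annotated, 10 of the 13 mRNAs end in a complete stop codon and 3 in a part of it. The last 2 annotated bases of mt-Nd1 and of mt-Nd2 also belong to the tRNA gene that follows, mt-Ti and mt-Tw. The annotation does not settle whether these 2 mRNAs carry the whole stop codon or also need the added A residues. The last 30 annotated bases of 5 mRNAs are printed in the direction of translation, from the GENCODE M21 transcripts of GRCm38, with the stop codon, or as much of it as the gene encodes, in capitals. They stand at MT:6843-6872 (plus strand) for mt-Co1, MT:9361-9390 (plus) for mt-Co3, MT:11515-11544 (plus) for mt-Nd4, MT:13552-13581 (minus) for mt-Nd6 and MT:15259-15288 (plus) for mt-Cytb.
mt-Co1: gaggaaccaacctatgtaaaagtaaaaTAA
mt-Co3: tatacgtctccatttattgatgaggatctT
mt-Nd4: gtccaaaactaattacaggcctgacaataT
mt-Nd6: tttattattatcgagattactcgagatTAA
mt-Cytb: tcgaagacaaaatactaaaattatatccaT
In mt-Co3, mt-Nd4 and mt-Cytb the gene ends in a single T, and the added A residues complete the stop codon. mt-Nd6 is the only 1 of the 13 mRNAs transcribed from the minus strand.

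Copies of mitochondrial genes in the nuclear genome shared reads with the mitochondrial originals. A block at chr1:24611535-24616197 (GRCm38) holds 7 annotated genes that match mt-Nd4, mt-Nd4l, mt-Nd3, mt-Co3, mt-Atp6, mt-Co2 and mt-Co1, and 11 such copies were found in all at 95% identity or more over at least 100 bases. The stretches that follow show how little separates an original from its copy. The first pair is bases 1 to 60 of mt-Nd3 (MT:9459-9518, plus) and the chromosome 1 copy Gm28438, the second bases 1063 to 1122 of mt-Co1 (MT:6390-6449, plus) and the copy Gm29216, with the differing base in capitals.
mt-Nd3: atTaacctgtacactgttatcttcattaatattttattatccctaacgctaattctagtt
Gm28438: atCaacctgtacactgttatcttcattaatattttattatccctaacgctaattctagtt
mt-Co1: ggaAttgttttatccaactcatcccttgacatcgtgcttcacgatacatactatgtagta
Gm29216: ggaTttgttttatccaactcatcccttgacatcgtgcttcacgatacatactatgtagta
Counted from the first base of the mitochondrial gene, T3C is the 1 substitution in the whole match with Gm28438, and A1066T the 1 in the match with Gm29216. The authors counted reads with several alignments as fractions, and the copy of mt-Nd3 received 1.09 counts for each count of mt-Nd3 (median over libraries), the copy of mt-Atp6 1.18 and the chromosome 1 copy of mt-Co1 0.354. Copies on chromosome 2 received 0.379 counts for each count of mt-Co1, 0.388 for mt-Co2 and 0.049 for mt-Nd2, and a copy on chromosome 13 received 0.065 for mt-Nd5. Levels of all the mRNAs with a copy are therefore uncertain by the reads given to it. The results on which this bears are also given with the copies' counts added. The tRNA genes are shorter than 100 bases, so the search could not find copies of them. Genes without a listed copy had fractional counts too: mt-Ts1 in 32 libraries, mt-Tw in 27, mt-Rnr2 in 17, mt-Nd6 in 16 and mt-Cytb in 13. For mt-Tl1 this was 1 library and for mt-Ti 0. Levels of genes with fractional counts are uncertain by shared reads as well.

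Libraries held 16535498 to 54456977 counts. Acvr1b averaged 17.5 counts per 1000000 counts of the library (CPM, with library sizes scaled by TMM) in double KO and 25.6 in Acvr1b KO gastrocnemius, against 107 in control, and 8.58 and 12.4 in the soleus of these genotypes, against 40.5 in control. Tgfbr1 averaged 47.8 CPM in double KO and 29.5 in Tgfbr1 KO gastrocnemius, against 28.5 in control. In soleus it averaged 24.9 and 14.5 CPM in these genotypes, against 15.7 in control. The double KO soleus mean was raised by library 1, at 51.2 CPM. The other double KO soleus libraries lay within the control range of 13.6 to 17.2 CPM. By edgeR Tgfbr1 was called lower in none of these comparisons, and higher in double KO gastrocnemius (log2 fold change 0.76, adjusted p = 0.00285). The count over the whole gene does not single out the deleted exons and does not check this label, and directions drawn for Tgfbr1 KO or double KO rest on the labels. All 14 myofibre markers were present in every group, and their summed level was 156608 to 217935 CPM in gastrocnemius libraries and 55651 to 99844 CPM in soleus libraries. Gastrocnemius control 1 stood apart from the other controls in every mitochondrial mRNA, and the fold changes of the mRNAs and the counts of nuclear subunits that use it are given with and without it.

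Mitochondrial genes took between 10.4% and 25.99% of all counts in a library. In soleus the share was 17.4, 19.3, 18.3 and 17.9% in double KO, 15.3, 16.2, 17.6 and 21.97% in Acvr1b KO, 20.5, 16.8, 15.5 and 16.8% in Tgfbr1 KO, against 17.8, 17.2, 18.6 and 16.4% in control. In gastrocnemius it was 14.1, 14.9, 12.9 and 13.2% in double KO, 14.5, 12.5, 10.6 and 11.7% in Acvr1b KO, 13.9, 17.3, 19.3 and 10.7% in Tgfbr1 KO, against 25.99, 10.8, 13.9 and 10.4% in control. All 3 knockout groups overlapped control in either muscle, and control 1 alone lay above every other gastrocnemius library. The share was higher in soleus than in gastrocnemius of the same mouse in 13 of 16 mice, by a median of 4.76 percentage points (range −8.23 to 10.3).

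**Figure D1:**
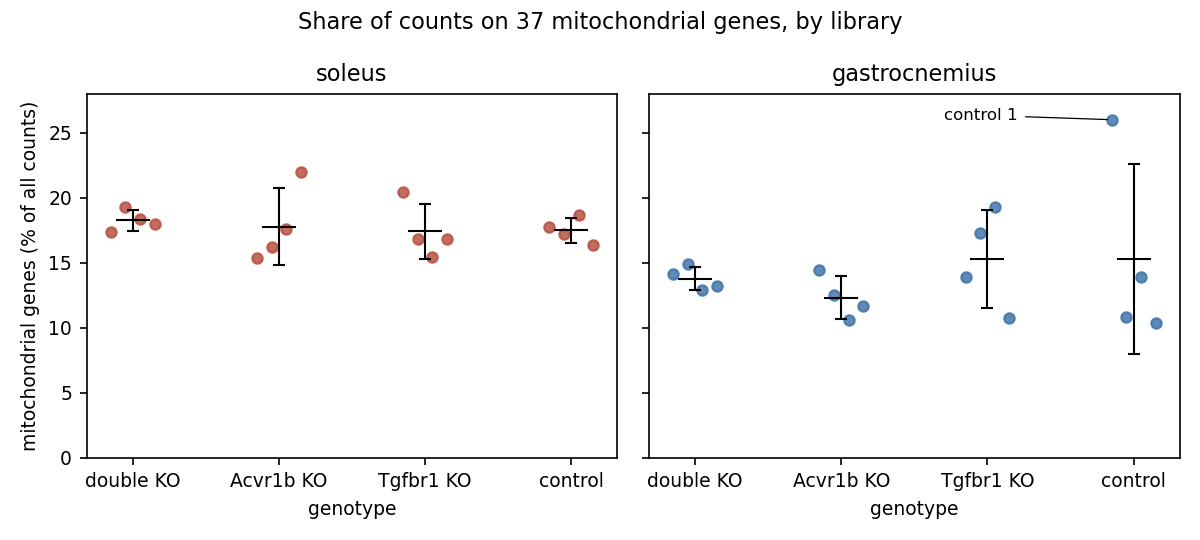
Counts on the 37 mitochondrial genes as a percent of all counts (y axis), 1 point per library, by genotype in soleus (left) and gastrocnemius (right), with bars for the mean ± SD of 4 libraries. Gastrocnemius control 1, at 25.99%, lies above the other 15 gastrocnemius libraries.

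The counts on the 13 mRNA genes differed widely when compared per length, as CPM per kilobase of gene (library sizes unscaled), averaged over 16 libraries. The libraries are of polyadenylated RNA, so each level is that of the RNA that passed this selection. In gastrocnemius mt-Cytb, the cytochrome b of complex III, stood at 20651 and mt-Co1, the catalytic subunit of complex IV, at 20371. Without gastrocnemius control 1, mt-Cytb was at 19681 and mt-Co1 at 19913. In soleus mt-Co1 was first at 31800, with mt-Cytb at 27021. The lowest in soleus was mt-Atp8, a small subunit of ATP synthase, at 1021. In gastrocnemius mt-Nd6 was lowest at 1451 with control 1, and mt-Atp8 at 1306, against 1350 for mt-Nd6, without it. With the counts of the nuclear copies added, mt-Co1 was first in both muscles, at 55232 in soleus and 34811 in gastrocnemius, and mt-Atp6, the ATP synthase subunit of the proton channel, was second at 32586 and 30616. The place of mt-Cytb as the first mRNA of gastrocnemius depended on where shared reads were counted and on gastrocnemius control 1. mt-Atp8 (MT:7766-7969) and mt-Atp6 (MT:7927-8607) overlap, as do mt-Nd4l (MT:9877-10173) and mt-Nd4 (MT:10167-11544). Reads over 2 genes were left unassigned, so these levels leave out reads on the shared stretches. Each level is that of the reads assigned to a gene. It does not show whether overlapping genes lie on separate RNA molecules.

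Nearly all mitochondrial counts came from mRNAs. The rRNAs mt-Rnr1 and mt-Rnr2, the RNAs of the small and large mitochondrial ribosomal subunits, made up 0.355% to 0.461% of all counts by group mean. This is the part of their RNA that passed a poly(A) selection, not their abundance. For each 100 mRNA counts there were 2.58, 2.45, 2.48 and 2.62 rRNA counts in soleus, against 3.24, 2.99, 3.13 and 3.20 in gastrocnemius (group means for double KO, Acvr1b KO, Tgfbr1 KO and control). The 22 tRNAs together had 548 to 2821 counts per library, and mt-Tf and mt-Ts2 had none in any library. Of the 22, 11 passed the filter on low counts. Mature tRNAs are short and carry no poly(A) tail, so a tRNA value counts the fragments that overlap that gene and not the tRNA pool.

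Gastrocnemius control 1 had the highest level of all 13 mRNAs and both rRNAs among the 16 gastrocnemius libraries. The excess over the mean of controls 2 to 4 was uneven along the chromosome, at 2.04-fold for mt-Co1, 2.64-fold for mt-Cytb, 3.59-fold for mt-Nd1 and 18-fold for mt-Atp8, with a median of 3.44-fold over the 13 mRNAs. mt-Nd1 and mt-Nd2, which encode membrane subunits of complex I, were 3.59-fold and 4.48-fold higher, and mt-Co3, a core subunit of complex IV, 2.21-fold higher. The tRNAs did not share one ratio. mt-Te, the glutamate tRNA between mt-Nd6 and mt-Cytb, was at 14.1 CPM in control 1 and 0.719, 0.951 and 0.594 CPM in controls 2 to 4, whereas mt-Tl1, the leucine tRNA between mt-Rnr2 and mt-Nd1, was 1.05-fold and mt-Tw, the tryptophan tRNA, 1.08-fold higher. As a share of the mRNA pool, mt-Co1 made up 16.6% in control 1, against 24.04% to 25.1% in the other controls. The next highest library for every mRNA was Tgfbr1 KO 3. The summed level of red blood cell markers was also highest in control 1 among the controls (692 CPM, range 259 to 692). So were those of myofibre markers (217935 CPM, range 191132 to 217935) and of smooth muscle and pericyte markers (402 CPM, range 282 to 402). Those of fibroblast and tendon markers (764 CPM, range 764 to 962) and of nerve and Schwann cell markers (41.5 CPM, range 41.5 to 67.7) were lowest in control 1. Their part in the difference was not tested.

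**Figure D2:**
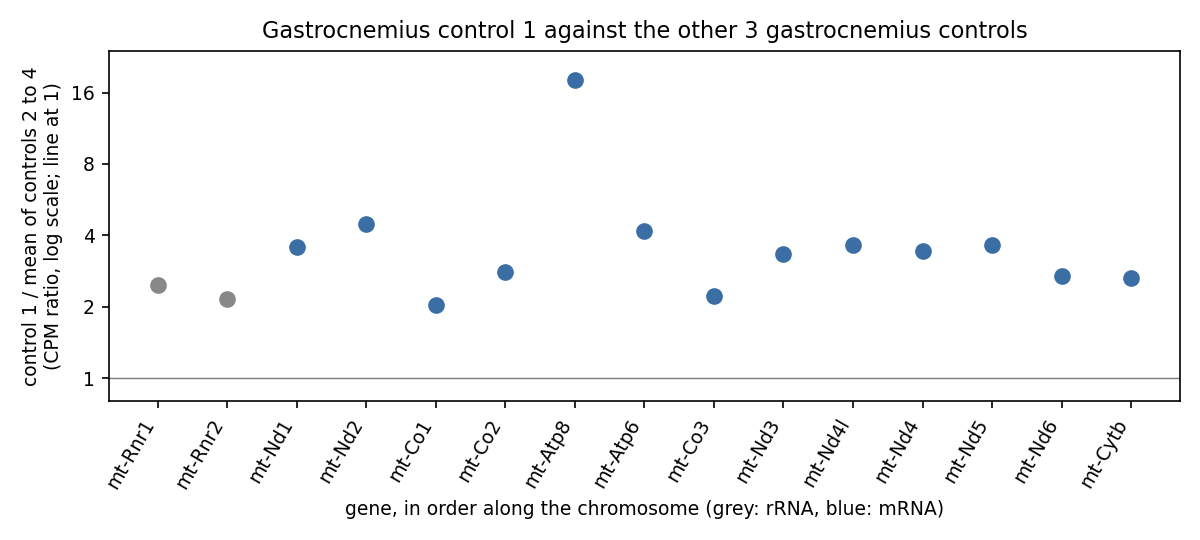
Level in gastrocnemius control 1 divided by the mean of gastrocnemius controls 2 to 4 (CPM ratio, log axis, line at 1) for the 2 rRNAs and 13 mRNAs in chromosomal order. The ratio runs from 2.04 for mt-Co1 to 18 for mt-Atp8, and no gene lies at 1.

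Libraries differed far more in some mRNAs than in others. Between the highest and the lowest gastrocnemius library mt-Atp8 spanned 25.5-fold and mt-Co1 2.26-fold, and without control 1 the spans were 12.97-fold and 1.82-fold. In soleus the span was 7.11-fold for mt-Atp8 and 1.68-fold for mt-Co1, with Acvr1b KO 4 the highest library for both. mt-Atp8 had 148, 577, 232 and 177 CPM in double KO gastrocnemius, 299, 158, 94.9 and 174 in Acvr1b KO, 326, 488, 1231 and 131 in Tgfbr1 KO, against 2418, 103, 188 and 112 in control. In double KO, Tgfbr1 KO and control, 1 library lay well above the other 3 of its group. In soleus it had 103, 296, 174 and 184 CPM in double KO, 84.7, 150, 172 and 603 in Acvr1b KO, 420, 127, 130 and 146 in Tgfbr1 KO, against 139, 129, 140 and 128 in control. The soleus controls lay close together, and each knockout group held 1 library far above them.

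The first comparison asks whether the level of mitochondrial RNAs in gastrocnemius changed with knockout. With edgeR's quasi-likelihood test and Benjamini-Hochberg adjustment over all genes tested, at 0.05, none of the 13 mRNAs and neither rRNA was called in double KO, Acvr1b KO or Tgfbr1 KO against control. Over all genes, 20.9% were called in double KO, 0.0285% in Acvr1b KO and 0.171% in Tgfbr1 KO. In the unadjusted test, 1 mRNA was under 0.05 in double KO, 1 in Acvr1b KO and 0 in Tgfbr1 KO, and DESeq2 called 0 in each. The standard errors of the mRNA log2 fold changes were 0.22 to 0.96. To pass after adjustment a change had to lie well above its standard error, so changes of this size and larger could be missed with 4 libraries a group.

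The log2 fold changes of the 13 mRNAs lay mostly below 0 with control 1 among the controls and mostly above 0 without it. Their median was −0.42 in double KO, −0.62 in Acvr1b KO and −0.16 in Tgfbr1 KO, with 13, 13 and 10 of 13 below 0, against medians over all genes of 0.00041, −0.0039 and 0.00048. Without control 1 the medians were 0.17, 0.08 and 0.54, with 1 of 13 below 0 in each comparison. No mRNA was called in either case. mt-Co1 had 30418, 35450, 30090 and 32473 CPM in double KO and 61004, 28225, 34556 and 27139 in control, a log2 fold change of −0.23 (SE 0.22, adjusted p = 0.511, edgeR) and of 0.11 without control 1. mt-Nd1 had 14251, 18042, 13910 and 14641 CPM in double KO and 50542, 12610, 17594 and 12089 in control, a log2 fold change of −0.61 (SE 0.36, adjusted p = 0.253, edgeR) and of 0.12 without control 1. Both genes overlapped between the groups, and the sign was decided by 1 library. The same held for mt-Cytb, at −0.42 (SE 0.28, adjusted p = 0.305) and 0.08 without control 1, and for mt-Atp8, at −1.32 (SE 0.94, adjusted p = 0.345) and 1.08.

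**Figure D3:**
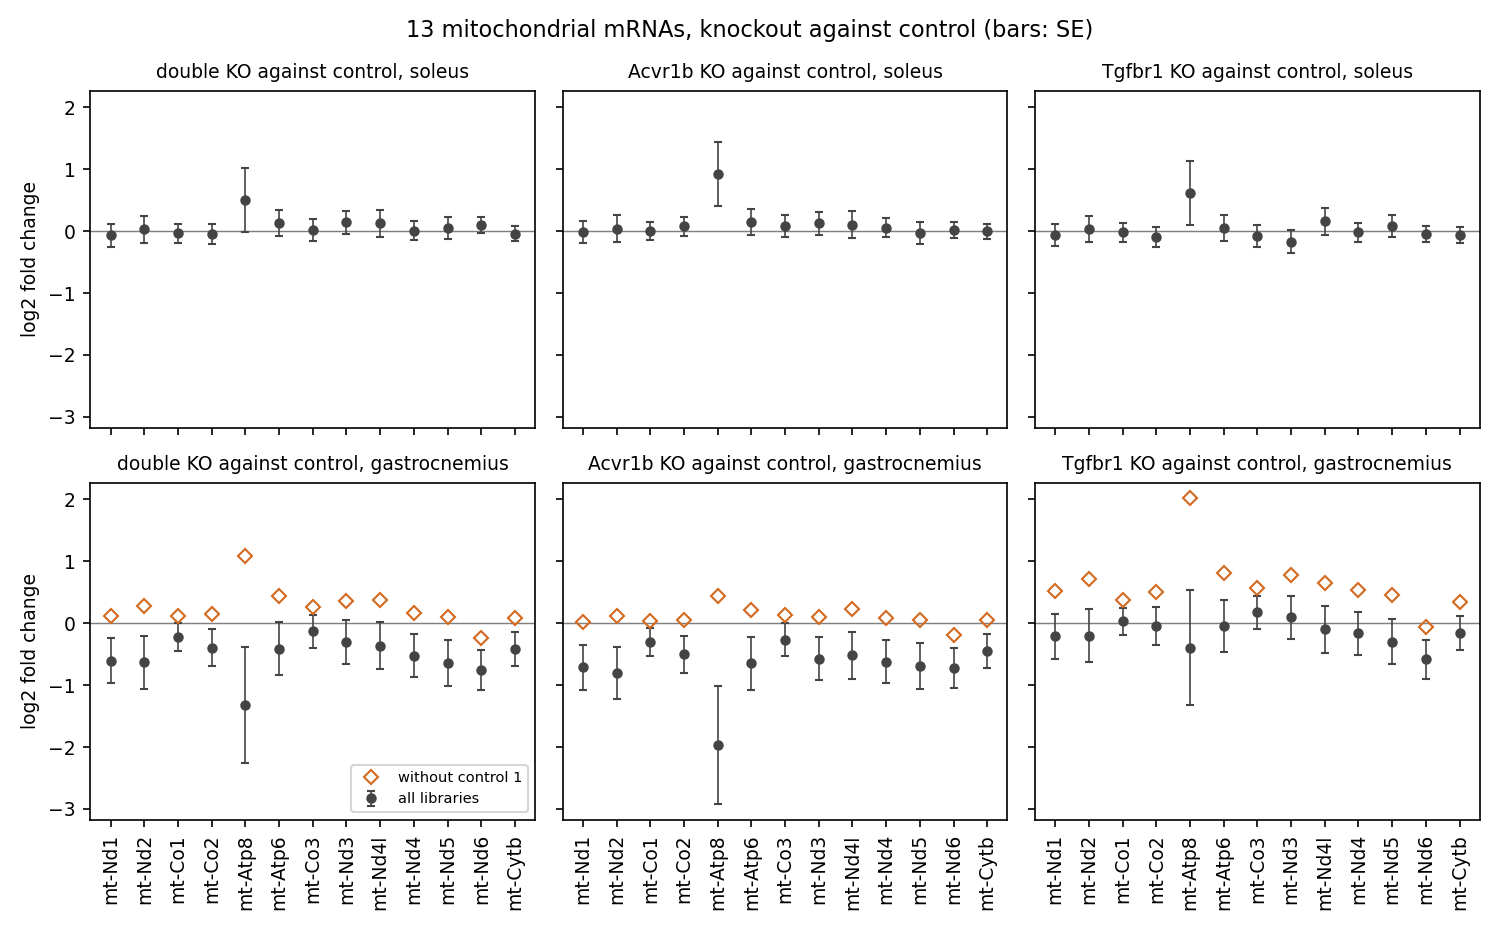
Log2 fold change of each of the 13 mitochondrial mRNAs in knockout against control (edgeR), in soleus (top) and gastrocnemius (bottom), with all libraries (filled points, bars are 1 SE) and, in gastrocnemius, without control 1 (open diamonds). In double KO and Acvr1b KO gastrocnemius all 13 values lie below 0 with all libraries, and 12 of 13 above 0 without control 1.

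mt-Nd6, a membrane subunit of complex I, was the mRNA with the lowest p in the double KO gastrocnemius. It had 716, 648, 698 and 715 CPM in double KO and 2235, 813, 853 and 813 CPM in control, with no overlap between the groups. The log2 fold change was −0.76 (SE 0.32, unadjusted p = 0.0299, adjusted p = 0.104, edgeR), which did not pass. Without control 1 it was −0.24 (adjusted p = 0.501). In Acvr1b KO it had 468, 727, 769 and 909 CPM, a log2 fold change of −0.72 (SE 0.32, adjusted p = 1.00, edgeR), and in Tgfbr1 KO 568, 992, 1109 and 492 CPM, a log2 fold change of −0.58, and both groups overlapped control. Without control 1 these values were −0.20 and −0.06. Set against the mRNAs of the other strand, mt-Nd6 had 5.22 ± 0.644 counts per 1000 plus-strand mRNA counts in double KO, 5.88 ± 1.98 in Acvr1b KO, 4.60 ± 0.535 in Tgfbr1 KO, against 6.73 ± 0.797 in control (SD, n = 4 each). In soleus the ratio was 6.19, 6.05, 5.69 and 5.76 in the same order. These ratios are of RNA that passed a poly(A) selection and need not be those of all RNA, and they were not tested.

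In soleus no change of a mitochondrial mRNA passed the test either. None of the 13, and neither rRNA, was called in double KO, Acvr1b KO or Tgfbr1 KO soleus by edgeR's quasi-likelihood test, where 0.722%, 0.022% and 0.0496% of all genes were called, and 0 were under 0.05 unadjusted or called by DESeq2. The median log2 fold change was 0.03 in double KO (range −0.07 to 0.50), 0.05 in Acvr1b KO (−0.03 to 0.92) and −0.02 in Tgfbr1 KO (−0.17 to 0.62), against medians over all genes of 0.035, 0.022 and 0.0082. mt-Atp8 had the highest value in all 3, at 0.50, 0.92 and 0.62 (SE 0.52 each). mt-Co1 had 34434, 48634, 47066 and 48419 CPM in double KO, 36455, 42366, 45953 and 57969 in Acvr1b KO, 53130, 43896, 41206 and 43176 in Tgfbr1 KO, against 44640, 46302, 49035 and 43598 in control. The groups overlapped, and double KO 1 was the lowest library. In that library the sums of myofibre (55651 CPM), endothelial (268 CPM) and smooth muscle and pericyte markers (262 CPM) were also the lowest of the soleus libraries. Its macrophage markers summed to 125 CPM, the highest of the soleus libraries, and the other marker lists were at neither end. The part of these lists in the mt-Co1 level was not tested.

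mt-Tw was the only 1 of the 11 tested tRNAs called between genotypes. It had 4.97, 3.97, 4.89 and 5.39 CPM in double KO gastrocnemius and 3.41, 3.29, 2.71 and 3.48 CPM in control, with no overlap. The log2 fold change was 0.58 (SE 0.17, adjusted p = 0.0249, edgeR), in a comparison where 11.4% of all genes were called higher. The call was lost without double KO 3 (adjusted p = 0.0562), double KO 4 (0.0714) or control 3 (0.0666). mt-Tw (MT:4950-5016) overlaps the end of mt-Nd2 (MT:3914-4951), and reads over both were left unassigned. Without control 1, where 11.2% of all genes were called higher, 4 tRNAs were, mt-Ti, mt-Tm and mt-Tt beside mt-Tw, of which mt-Tm and mt-Tt were named with their values known. mt-Ti had 2.84, 4.11, 3.28 and 2.85 CPM in double KO and 6.90, 0.636, 1.39 and 1.37 CPM in control, and control 1 alone lay above the double KO libraries. No tRNA was called in soleus for any knockout by edgeR, with 0, 1 and 0 under 0.05 unadjusted in double KO, Acvr1b KO and Tgfbr1 KO.

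The second comparison asks how slow and fast muscle differed. Between soleus and gastrocnemius 39.7% of all genes were called in double KO, 41.5% in Acvr1b KO and 40.5% in Tgfbr1 KO, with 40.4% in control. Of the 13 mRNAs, 0 were called in double KO (1 under 0.05 unadjusted, 0 by DESeq2), 1 in Acvr1b KO (mt-Co1, higher), 1 in Tgfbr1 KO (mt-Nd3, lower) and 1 in control (mt-Atp8, lower). Over all genes 22.2% were called higher in Acvr1b KO, and 19.4% lower in Tgfbr1 KO and 20% lower in control. The median log2 fold change of the 13 was 0.09 in double KO, 0.30 in Acvr1b KO, −0.28 in Tgfbr1 KO, against −0.48 in control, and the medians over all genes were 0.10, 0.10, 0.088 and 0.067. In control without gastrocnemius control 1 the mRNA median was 0.24, with 1 of 13 below 0, and over all genes 0.044. Neither rRNA was called in any genotype.

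The log2 fold change of mt-Co1 was above 0 in all 4 genotypes and passed in Acvr1b KO. In Acvr1b KO it had 36455, 42366, 45953 and 57969 CPM in soleus and 35108, 31246, 27165 and 29121 CPM in gastrocnemius, with no overlap and a log2 fold change of 0.58 (SE 0.20, adjusted p = 0.0237, edgeR). The call was lost without gastrocnemius Acvr1b KO 3 (adjusted p = 0.0691), gastrocnemius 4 (0.0567) or soleus 4 (0.101). In double KO the log2 fold change was 0.48 (SE 0.20, adjusted p = 0.0621, edgeR), and it passed when the nuclear copies' counts were added (adjusted p = 0.0379) and without soleus double KO 1 (0.0342). In control it was 0.28 (adjusted p = 0.276, edgeR), and without gastrocnemius control 1 it was 0.59 (adjusted p = 0.00864). In Tgfbr1 KO it was 0.23 (adjusted p = 0.381, edgeR) and did not pass.

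Of the complex I mRNAs, mt-Nd3 was called in Tgfbr1 KO. mt-Nd3, a core subunit of complex I, had 625, 497, 406 and 458 CPM in Tgfbr1 KO soleus and 842, 1038, 1193 and 487 CPM in Tgfbr1 KO gastrocnemius. The groups overlapped at 1 gastrocnemius library, and the log2 fold change was −0.84 (SE 0.30, adjusted p = 0.0235, edgeR). The call was lost without gastrocnemius Tgfbr1 KO 2 (adjusted p = 0.0645) or 3 (0.0816), or soleus Tgfbr1 KO 3 (0.0694) or 4 (0.0577). The values were −0.13, 0.12 and −0.57 for double KO, Acvr1b KO and control, and mt-Nd1 was at 0.02, 0.17, −0.38 and −0.52 in double KO, Acvr1b KO, Tgfbr1 KO and control. None of these passed, and only mt-Nd3 in control passed without a library (−0.77, adjusted p = 0.0427 without gastrocnemius control 4). In control mt-Atp8 averaged 134 ± 6.12 CPM in soleus and 705 ± 1143 CPM in gastrocnemius (SD, n = 4 each), a log2 fold change of −2.40 (SE 0.81, adjusted p = 0.0192, edgeR). Without gastrocnemius control 1 it was −0.03 (adjusted p = 0.979), and with the mouse as a block −0.80 (adjusted p = 0.431), so the call rested on 1 library.

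The make-up of the mitochondrial mRNA pool, the counts of each mRNA as a percent of the counts of all 13, kept the muscles apart in all 4 genotypes for 3 mRNAs. mt-Co1 made up 27.1, 27.9, 28.4 and 28.96% in double KO soleus and 23.6, 23.2, 24.05 and 24.5% in double KO gastrocnemius. In control it was 28.6, 28.2, 28.4 and 29.5% in soleus and 16.6, 24.99, 24.04 and 25.1% in gastrocnemius. In Acvr1b KO it averaged 28.3 ± 0.981% in soleus and 24.3 ± 0.713% in gastrocnemius, and in Tgfbr1 KO 28.8 ± 0.703% and 23.1 ± 1.67% (SD, n = 4 each). The muscles did not overlap in any of the 4 genotypes, with or without gastrocnemius control 1. Within mice the share was higher in soleus in 16 of 16, by a median of 4.45 percentage points (range 3.23 to 11.9).

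The share of mt-Nd1 was lower in soleus than in gastrocnemius in 16 of 16 mice, by a median of 1.62 points, with group means of 9.69, 9.82, 9.84 and 10.1% in soleus and 11.3, 11.2, 11.8 and 12.1% in gastrocnemius (double KO, Acvr1b KO, Tgfbr1 KO and control). That of mt-Nd3 was also lower in 16 of 16, with means of 0.388, 0.371, 0.313 and 0.348% in soleus and 0.495, 0.439, 0.518 and 0.441% in gastrocnemius. Neither gene overlapped between muscles in any genotype. The other 10 mRNAs overlapped in at least 1 genotype, and mt-Cytb, mt-Co3 and mt-Nd4 in all 4. With the nuclear copies' counts added, the same 3 genes kept the muscles apart in all 4 genotypes. The shares sum to 100, so a higher mt-Co1 share lowers the others, and they are given without a test.

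**Figure D4:**
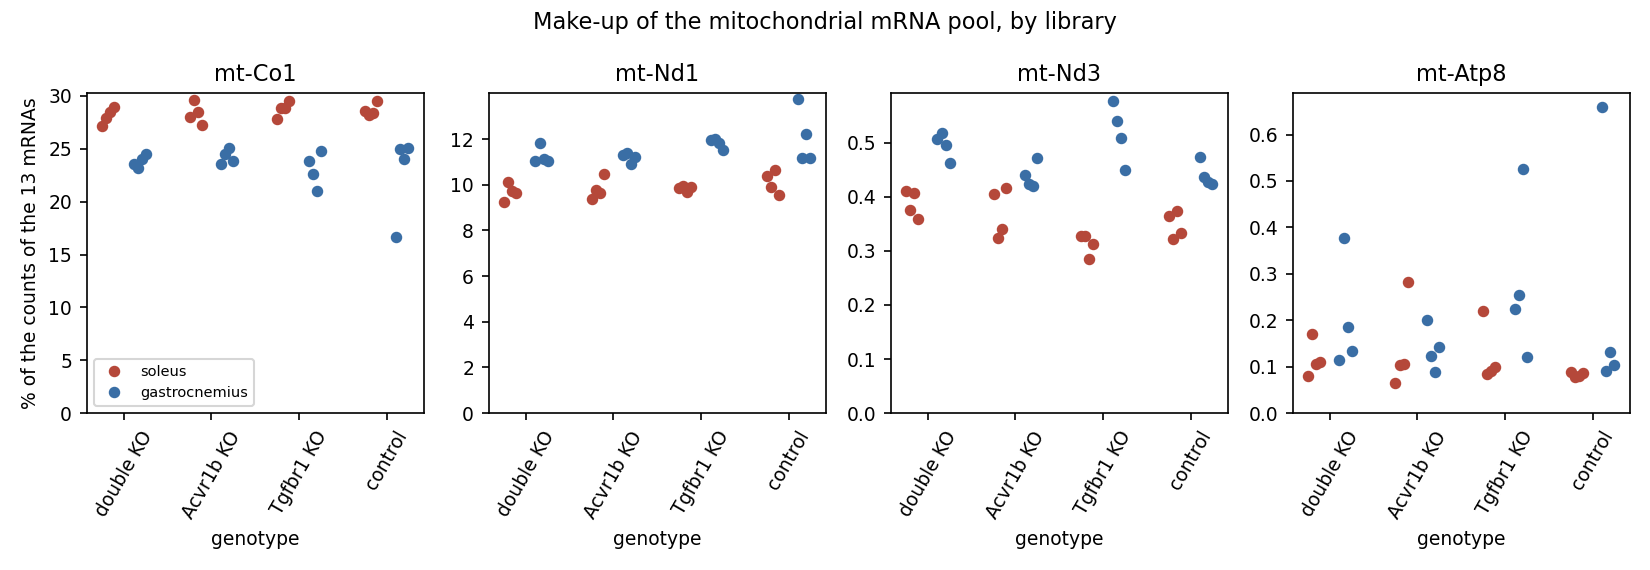
Share of mt-Co1, mt-Nd1, mt-Nd3 and mt-Atp8 in the counts of the 13 mitochondrial mRNAs (percent), 1 point per library, by genotype with soleus left of gastrocnemius. mt-Co1 lies higher, and mt-Nd1 and mt-Nd3 lower, in every soleus group, while mt-Atp8 overlaps in 3 of 4 genotypes.

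The tRNA genes together averaged 59.2, 56.1, 59.3 and 57.4 CPM in soleus (double KO, Acvr1b KO, Tgfbr1 KO and control, library sizes unscaled), against 38.9, 32.4, 36.9 and 33.3 in gastrocnemius. mt-Tl1 had 6.79, 11.8, 13.9 and 13.2 CPM in double KO soleus and 6.18, 4.76, 6.38 and 7.34 CPM in double KO gastrocnemius. In control it had 16.3, 15.4, 13.1 and 12.6 CPM in soleus and 6.34, 5.81, 5.82 and 6.50 CPM in gastrocnemius. In control the muscles did not overlap, and mt-Tl1 was called higher in soleus in all 4 genotypes. The log2 fold changes were 0.89, 0.81, 0.68 and 1.23 in double KO, Acvr1b KO, Tgfbr1 KO and control, with adjusted p of 0.00183, 0.00369, 0.0127 and 4.36e-05 (edgeR's quasi-likelihood test). In Tgfbr1 KO the call was lost without gastrocnemius 2 (adjusted p = 0.0585) or 3 (0.0502), and in the other genotypes no library decided it.

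mt-Tw was called higher in soleus in double KO (0.63, adjusted p = 0.0376), Acvr1b KO (0.66, adjusted p = 0.0328) and control (1.00, adjusted p = 0.00172), and in Tgfbr1 KO the value was 0.44 (adjusted p = 0.152, and 0.0308 with the mouse as a block, edgeR). The calls in double KO and Acvr1b KO were each lost without any 1 of 5 libraries of the 8 compared (adjusted p up to 0.107 and 0.263), and the call in control was not. mt-Ts1, a serine tRNA on the minus strand at MT:6870-6938, had the highest count of the 22, and was called in Tgfbr1 KO at 0.83 (adjusted p = 0.0263, edgeR; lost without any 1 of 4 libraries, up to 0.103) and not in double KO (0.62), Acvr1b KO (0.48) or control (0.29). mt-Ti, the isoleucine tRNA, was called higher in soleus in Acvr1b KO at 1.81 (adjusted p = 0.0106, edgeR). Without soleus Acvr1b KO 4 it was 1.00 (adjusted p = 0.139). mt-Tp, the proline tRNA, was lower in Tgfbr1 KO soleus at −1.21 (adjusted p = 0.0422, edgeR), at levels near 1 CPM, and the call was lost without any 1 of 6 of the 8 libraries (adjusted p up to 0.293). mt-Te was lower in control soleus at −2.38 (adjusted p = 0.00709, edgeR), and without gastrocnemius control 1 it was 0.05.

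Whether the double KO effect differed between muscles was tested as an interaction, in which 0.732% of all genes were called. No mitochondrial gene was called by edgeR, also not for Acvr1b KO or Tgfbr1 KO, and 1 mRNA was under 0.05 unadjusted for double KO, with 0 called by DESeq2. The median over the 13 mRNAs was 0.52 (range 0.14 to 1.81) and −0.20 without gastrocnemius control 1, against 0.044 and 0.025 over all genes. mt-Nd6 had the lowest p, at a difference of 0.85 on the log2 scale (SE 0.36, unadjusted p = 0.0268, adjusted p = 0.451, edgeR), and 0.32 without gastrocnemius control 1.

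The nuclear genes for the same complexes were set beside the mitochondrial ones. Of 76 nuclear subunits of complexes I, III, IV and ATP synthase tested, 31 fell in double KO gastrocnemius and 0 rose, with a median log2 fold change of −0.25, where 9.59% of all genes were called lower. By complex, 18 of 36 fell in complex I, 2 of 9 in complex III, 6 of 14 in complex IV and 5 of 17 in ATP synthase. Without gastrocnemius control 1, where 10.7% of all genes were called lower, 54 fell (27, 8, 10 and 9 by complex in the same order) and the median was −0.32, whereas the mRNA median then stood at 0.17. Ndufa5, a subunit of the arm of complex I that binds NADH, fell to 92.6 CPM in double KO, against 130 in control, a log2 fold change of −0.48 (adjusted p = 0.000888, edgeR). In soleus, where 0.722% of all genes were called, 0 of the 76 were called in double KO by edgeR, and 1 was under 0.05 unadjusted. There 75 of 76 lay below 0, with a median of −0.23, against 0.035 over all genes. The double KO values include library 1, which had the lowest myofibre marker sum in soleus, and they spread widely. Atp5a1 had 2183 ± 555 CPM in double KO soleus and 2613 ± 210 in control (SD, n = 4 each). The interaction called 0 of the 76, with a median of 0.027, so no difference between muscles is shown. Myofibre markers moved in the same gastrocnemius comparison, with 7 of 14 lower (summed level 156608 to 183591 CPM in double KO and 191132 to 217935 in control). Of 8 macrophage markers 5 were higher (64.0 to 105 CPM in double KO and 50.4 to 59.2 in control), where 11.4% of all genes were called higher. Of 8 endothelial markers 3 were lower (206 to 225 CPM in double KO and 233 to 273 in control), and of 6 smooth muscle and pericyte markers 2 (214 to 298 CPM in double KO and 282 to 402 in control). No marker of these 4 lists was at 0 throughout a group. Of the other lists, 2 of 6 adipocyte markers were lower and 2 of 8 fibroblast and tendon markers were higher. Of 4 satellite cell markers 1 was higher and 1 lower (0 and 0 without control 1). All 5 red blood cell markers were lower (0 of 5 without control 1). The part of any list in the change of the subunits was not tested.

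Between muscles the nuclear subunits differed in the other direction. In control 50 of 76 were higher in soleus and 0 lower, with a median of 0.43, where 20.5% of all genes were called higher. All 14 nuclear subunits of complex IV were higher, 8 of 9 of complex III, 13 of 17 of ATP synthase and 15 of 36 of complex I. Without gastrocnemius control 1, where 16% of all genes were called higher, the count was 36 (13, 5, 9 and 9 by complex in the same order) and the median 0.34. Cox8a, a small subunit of complex IV made in most tissues, was higher in soleus by 1.00 (adjusted p = 2.63e-06, edgeR), and Ndufb3, a complex I subunit, by 0.93 (adjusted p = 7.54e-06). Of complex II, which has no mitochondrially encoded subunit, 3 of 4 were higher, and 2 without that library. In double KO 55 of 76 were higher with a median of 0.47 (30 when only the compared groups were fitted), in Acvr1b KO 62 and in Tgfbr1 KO 48 (29 without gastrocnemius Tgfbr1 KO 3), where 21.6%, 22.2% and 21.1% of all genes were called higher. Endothelial markers were higher in control soleus in 6 of 8 genes (summed level 351 to 439 CPM in soleus and 233 to 273 in gastrocnemius), and 8 of 14 myofibre markers were lower and 4 higher. Of 6 adipocyte markers 6 were higher (26.1 to 123 CPM in soleus and 11.4 to 30.5 in gastrocnemius), and of 6 smooth muscle and pericyte markers 4 (390 to 610 CPM in soleus and 282 to 402 in gastrocnemius). Without gastrocnemius control 1 the counts were 5 endothelial, 4 adipocyte and 6 smooth muscle and pericyte markers. Of the neutrophil list 2 of 4 were higher, and of the nerve and Schwann cell, fibroblast and tendon, macrophage and satellite cell lists 1 each. Their part was not tested.

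**Figure D5:**
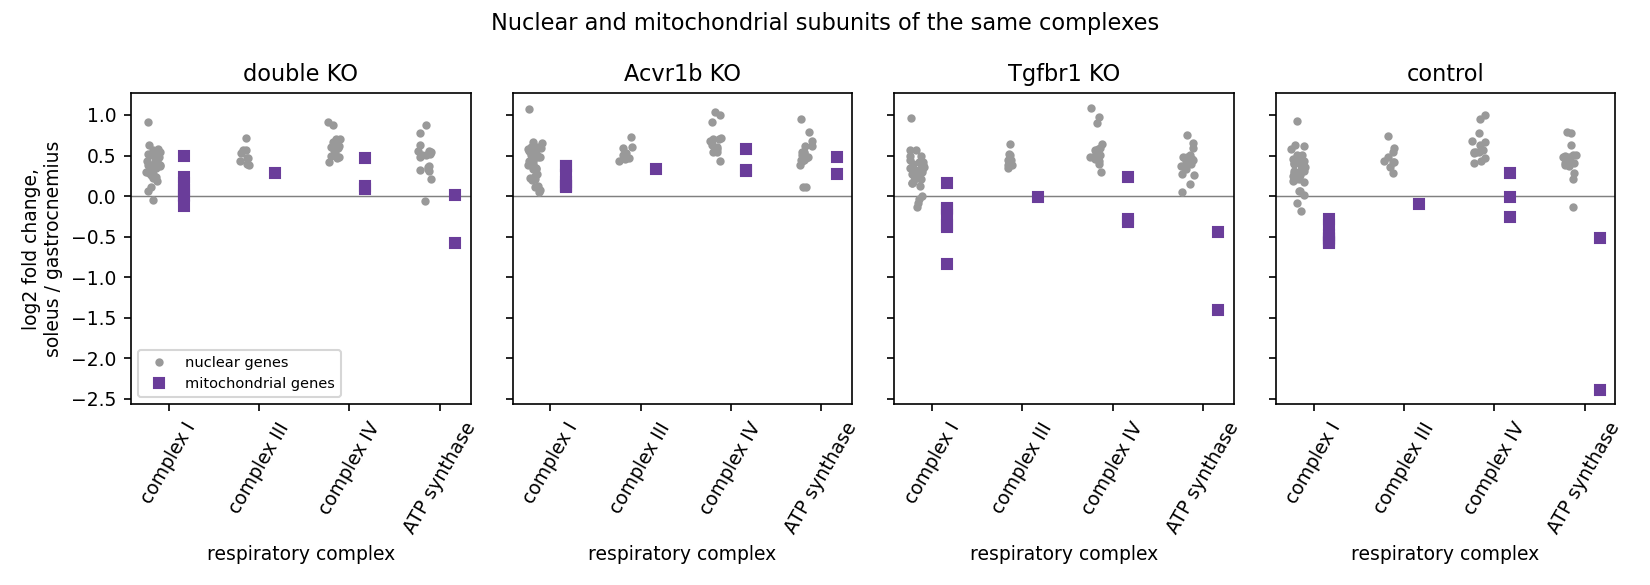
Log2 fold change in soleus against gastrocnemius of each nuclear subunit (grey) and mitochondrial subunit (purple), by respiratory complex, in the 4 genotypes, 1 point per gene. In control, with gastrocnemius control 1 included, 3 of the 76 nuclear subunits and 12 of the 13 mitochondrial ones lie below 0, and in Acvr1b KO 0 of either. Without that library, not drawn here, the medians in control were 0.34 for the nuclear and 0.24 for the mitochondrial subunits.

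The nuclear genes that copy and express mitochondrial DNA changed in single members. Of 23 genes for mtDNA transcription and replication, 3 rose and 4 fell in double KO gastrocnemius, where 11.4% of all genes were called higher and 9.59% lower. Primpol, which restarts stalled replication, rose by 0.57 on the log2 scale (adjusted p = 0.0101, edgeR), Tfb1m, which methylates the small rRNA, by 0.44 (adjusted p = 0.00520), and Tk2, which supplies nucleotides for mtDNA, fell by 0.56 on the log2 scale (adjusted p = 0.0108). Of 36 genes for mitochondrial RNA processing, stability and modification, 6 rose and 0 fell, among them Pde12, which trims poly(A) tails, at 0.45 (adjusted p = 0.00537, edgeR). Of 20 translation factors and activators 0 rose and 3 fell. Without control 1 the 3 lists had 3, 5 and 0 genes higher and 4, 1 and 4 lower. The largest change in the 3 lists was that of Mss51, a muscle gene whose yeast relative activates translation of the Co1 mRNA. It averaged 14.4 ± 7.82 CPM in double KO gastrocnemius and 49.1 ± 9.80 in control (SD, n = 4 each), a log2 fold change of −1.76 (SE 0.39, adjusted p = 0.00418, edgeR). In soleus double KO, where 0.722% of all genes were called, none of these genes was called by edgeR, and 3, 1 and 2 of the 3 lists were under 0.05 unadjusted. Mss51 also had the largest difference between muscles among the called members of the 3 lists, at 6.09 CPM in control soleus and 49.1 CPM in control gastrocnemius, a log2 fold change of −3.0 (adjusted p = 0.000286, edgeR), followed by Mgme1, an exonuclease of mtDNA ends, at −1.06 (adjusted p = 7.90e-09).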

How the data were processed

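The authors deposited 1 table of estimated counts per gene for 32 libraries, made with featureCounts 2.0.1 on Ensembl 102 (GRCm38), with reads of several alignments counted as fractions, reversely stranded (setting 2), and reads over 2 genes unassigned, per the file headers. The submitters' processing notes also name cutadapt, HISAT2 1.33, FastQC 0.11.9 and DESeq2. Total counts per library ran from 16535498 to 54456977, which limits the tRNAs most.

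Counts were rounded, filtered with filterByExpr, scaled with TMM and tested with edgeR 4.0.16 (quasi-likelihood, R 4.3.3), adjusted with Benjamini-Hochberg over all genes tested (17536 in gastrocnemius, 18143 in soleus, 18726 in both). Knockout and control were compared within each muscle over 16 libraries, and muscles and interactions over 32 libraries. The procedure was tested on simulated counts. Nuclear copies were found with blastn 2.17.0. Symbols came from GENCODE M21, matched for 55227 of 55487 identifiers. Columns were mapped to samples by the labels, and none was left unused (0). Replicates are separate mice. Both muscles came from the same mouse, so the mouse was fitted as a block as an alternative: deviations from the group means correlated by 0.034 to 0.579 between the muscles of a mouse, over 0.1 in 11 of 16.

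Alternatives were DESeq2 1.42.0, RLE scaling, no filter, library sizes without mitochondrial counts, the block, the compared groups alone and leaving out each library. Chosen after seeing the data were nuclear copies added and no gastrocnemius control 1 in any group, or in levels and spans. All mRNAs and rRNAs are described; of the tRNAs, the 4 with the highest mean count and those called, plus mt-Te, mt-Tp, mt-Tf and mt-Ts2, which were named with their values known; of each nuclear list, up to 4 called members with the largest change. Members and lists were chosen with earlier results of these data known.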

Additional observations from a re-analysis of the deposited data

Results flagged for a closer look

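In groups of 4 libraries, the highest or lowest was marked where its gap to the nearest other, divided by the range of the group, exceeded Dixon's critical value at 95%. This was examined for 144 combinations of a group and a measure, of which chance marks about 1 in 20, and 24 were marked. Gastrocnemius control 1 was far above the other controls for mt-Nd1 (50542 CPM), mt-Nd2 (41388), mt-Co2 (15083), mt-Atp8 (2418), mt-Atp6 (29612), mt-Nd3 (1740), mt-Nd4l (2862), mt-Nd4 (45850), mt-Nd5 (40344), mt-Nd6 (2235) and mt-Cytb (58364). Gastrocnemius double KO 2 stood highest in its group for mt-Nd2 (13284 CPM), mt-Co2 (7019) and mt-Atp6 (11750), and lowest for mt-Nd6 per 1000 plus-strand mRNA counts, at 4.26 against 5.42 to 5.61 in the other 3.

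In soleus, Tgfbr1 KO 1 stood highest in its group for mt-Rnr2 (4162 CPM), mt-Nd2 (15469), mt-Atp8 (420) and mt-Nd4 (21518). Acvr1b KO 4 stood highest for mt-Rnr2 (4933 CPM) and mt-Atp8 (603). Double KO 1 stood lowest for mt-Co1 (34434 CPM), mt-Co2 (5076) and mt-Cytb (24472). Of the 78 interaction tests over mitochondrial genes 0 were called by edgeR's quasi-likelihood test, so no difference between muscles in a knockout effect is listed.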

How the results depend on the processing

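No mitochondrial mRNA or rRNA was called between genotypes in any of 1350 recomputed values. Of 825 recomputed values for the genes whose fold change is printed, 751 kept direction and call, 46 lost the call, 8 gained one and 20 changed sign. Those that changed sign without gastrocnemius control 1 were, in double KO against control, mt-Nd1 (0.12 without it, and down to −0.83 without another library), mt-Co1 (0.11 and −0.36), mt-Atp8 (1.08 and −1.93) and mt-Cytb (0.080 and −0.59), in Acvr1b KO mt-Atp8 (0.45 and −2.33), and, in soleus against gastrocnemius of control, mt-Nd1 (0.18 and −0.73), mt-Nd3 (0.069 and −0.77) and mt-Te (0.050 and −2.75). In Acvr1b KO, mt-Nd1 (−0.033, and up to 0.28 without another library) and mt-Nd3 (−0.12 and 0.23) changed sign without soleus replicate 4. In double KO mt-Nd1, at 0.02, was −0.0092 with DESeq2 and with RLE scaling, −0.015 without a filter, −0.024 with no gastrocnemius control 1 in any group, −0.00081 with the compared groups alone, and −0.054 to 0.11 when each library was left out, below 0 in 5 cases. The cause was not tested.

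The number of genes called moved with several settings. With the compared groups alone it was 2330 (against 3673) for double KO gastrocnemius, 3 (against 5) for Acvr1b KO gastrocnemius, 35 (against 131) for double KO soleus, 4923 (against 7434) for the muscles in double KO and 31 (against 137) for the interaction. With DESeq2 it was 26 and 57 (against 5 and 30) for Acvr1b KO and Tgfbr1 KO gastrocnemius, 410, 9 and 19 (against 131, 4 and 9) for double KO, Acvr1b KO and Tgfbr1 KO soleus, and 229 for the interaction. Without a filter Tgfbr1 KO soleus had 17, and without gastrocnemius control 1 the interaction had 72. With the replicate block, Acvr1b KO gastrocnemius had 2 and the interaction, blocked by mouse, 258. Replicate numbers across genotypes share only a number (correlations −0.090 to 0.090), and that block called no mitochondrial mRNA.

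Of the mRNAs called between muscles, control had 0 lower (against 1) without a filter, with the block or with the compared groups alone. Double KO had 1 higher (against 0) in 3 settings. This was mt-Co1 with nuclear copies added or with no gastrocnemius control 1, and mt-Nd6 with the compared groups alone. Tgfbr1 KO had 2 lower (against 1) with no gastrocnemius control 1. Leaving out each library gave 2651 to 3872, 3 to 9 and 21 to 44 genes called in gastrocnemius (double KO, Acvr1b KO, Tgfbr1 KO), 64 to 308, 3 to 5 and 4 to 15 in soleus, 6296 to 7878, 6811 to 7612, 6553 to 7115 and 6439 to 7268 between muscles (double KO, Acvr1b KO, Tgfbr1 KO, control) and 72 to 337 for the interaction. The mRNAs called were then 0 in all genotype comparisons, 0 to 1 higher in double KO and Acvr1b KO, 0 to 1 lower in Tgfbr1 KO, and 0 to 1 higher and 0 to 2 lower in control. The mean mitochondrial share ran from 17.9 to 18.5%, 16.4 to 18.6%, 16.4 to 18.04% and 17.1 to 17.9% in soleus and 13.4 to 14.1%, 11.6 to 12.9%, 13.99 to 16.8% and 11.7 to 16.9% in gastrocnemius.

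With chromosome 1 copies added, all copies added, and without the 20 highest nuclear genes, the share was 23.999, 26.3 and 22.6% in double KO soleus, 23.5, 25.7 and 21.9% in Acvr1b KO, 22.8, 25.01 and 21.4% in Tgfbr1 KO, 22.9, 25.2 and 21.5% in control, 18.2, 19.8 and 18.8% in double KO gastrocnemius, 16.2, 17.6 and 17.2% in Acvr1b KO, 20.3, 21.9 and 21.3% in Tgfbr1 KO and 19.9, 21.4 and 21.3% in control. Depth limits the tRNAs, of which 11 of 22 were tested.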
